A study of Mus musculus with 12 samples.

Results

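The study's liver data were examined for 8 enzymes of fatty acid oxidation, in mice with and without METTL5: Cpt1a, Cpt2, Acadm, Acadl, Acadvl, Hadha, Hadhb and Ehhadh. They were taken by name from a table of 10607 genes that had values in both input and ribosome-protected fragments (RPF), and all 8 were found there. None of the 8 is a ketogenic enzyme, so the genes of ketone body synthesis are described from a list of 5 genes of their own. METTL5 methylates an adenosine of the 18S rRNA, the RNA of the small ribosomal subunit. The comparison asks whether its loss changed the amount of each enzyme's transcript, the number of ribosomes on it, or their ratio. The animals were 3 pairs of littermates, in each of which 1 mouse was wild type (WT) and 1 lacked Mettl5 (KO). Every liver gave 2 libraries, RNA-seq of the lysate (input) and RPF, or 12 libraries in all. The KO allele lacks a floxed exon of Mettl5, removed in the whole body by crossing to B6.C-Tg(CMV-cre)1Cgn/J mice, in which CMV drives Cre. The line was made in stem cells of a C57bl/6 x 129S6 hybrid and backcrossed to B6, so every cell type of the liver, and every other organ, lacked METTL5. Liver lysates of both genotypes contained cycloheximide, which holds ribosomes in place. The study used males and females over a range of ages from weeks to months, and the age, sex and feeding state of each of these 6 mice were not given in the sources used here.

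Fatty acids that enter a hepatocyte are activated to acyl-CoA and carried into mitochondria on carnitine. CPT1A on the outer mitochondrial membrane makes the acylcarnitine and is the main control point of the pathway, and CPT2 on the inner membrane turns it back into acyl-CoA. Each round of beta-oxidation then starts with an acyl-CoA dehydrogenase chosen by chain length: ACADVL for very long, ACADL for long and ACADM for medium chains. The mitochondrial trifunctional protein carries out the next steps on long chains. HADHA is its alpha subunit, with hydratase and 3-hydroxyacyl-CoA dehydrogenase activity, and HADHB is its beta subunit, the thiolase. EHHADH does the hydratase and dehydrogenase steps in peroxisomes. In the fasted liver the acetyl-CoA feeds ketone body synthesis, and the nuclear receptor PPARA raises transcription of many of these genes.

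Reads over the table's genes numbered 2398804 to 5121304 in input and 4623826 to 9184242 in RPF. Together the 8 enzymes took 3352 to 9396 reads per input library (0.140% to 0.183%) and 13111 to 24404 per RPF library (0.258% to 0.302%). Values below are normalized reads, which are reads divided by 1 factor per library without correction for gene length. Errors are the SD over mice. Input p-values measure the spread between these 6 animals. For RPF and TE, limma estimated 1 spread per gene from all 12 libraries, and the 2 libraries of a mouse were treated as independent. Xist had 0 counts in every input library, while 4 Y-linked genes summed to 707 to 774 normalized input reads in WT and 663 to 684 in KO, as in male mice. Mettl5 itself had 67, 56 and 103 RPF reads in WT mice 1, 2 and 3 and 12, 9 and 10 in KO mice, so its footprints went with the labels in each mouse. Its input counts, not normalized for depth, were 21, 18 and 12 in WT and 13, 7 and 5 in KO. Its RPF log2 change was -2.64 (limma adjusted p 0.00504), or -2.44 and short of the threshold without KO mouse 2 (limma adjusted p 0.0519). The tissue was hepatocyte-rich, with the summed input of 7 hepatocyte markers at 258126 to 359401 normalized reads in WT and 270335 to 293901 in KO. Cpt1b, the muscle form of the carnitine enzyme, had 0 counts in every input library, as did Adipoq, Plin1, Lep and Ucp1, 4 of 5 adipocyte markers. Cpt1b was the only 1 of 4 muscle markers at 0 throughout. The 1 muscle marker with values in both assays had 44.0 to 89.2 normalized input reads in WT and 34.6 to 281 in KO. The 6 stellate cell markers summed to 1121 to 1390 in WT and 1450 to 1533 in KO in input, and to 2484 to 2998 and 3684 to 4262 in RPF, and these groups did not overlap. Their part in the results below was not tested. In whole liver a different number of cells of a type cannot be told apart from a different amount of RNA per cell.

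To compare the enzymes with each other, RPF was divided by the length of the coding sequence and input by the length of all annotated exons. The 8 enzymes ranked highly among 8986 genes, with the exception of Hadhb. In WT, RPF per kilobase was highest for Hadha (1472 ± 195, SD, n = 3), followed by Acadvl (1296 ± 31.2), Acadm (1150 ± 73.5) and Acadl (1113 ± 90.8). Ehhadh had 898 ± 113, Cpt1a 596 ± 96.7 and Cpt2 511 ± 123 normalized RPF reads per kilobase. Hadhb had 90.2 ± 12.1, 16.3-fold below its partner subunit Hadha. These levels put 7 enzymes between the 89.3 and 95.8 percentiles of all genes, and Hadhb at 63.3. Ranges over the 3 WT mice overlapped between Hadha and Acadvl, between Acadm and Acadl and between Cpt1a and Cpt2, and the other neighbours in this order did not overlap. Input per kilobase of exon ran from 548 ± 50.1 for Acadvl to 26.9 ± 1.21 for Hadhb, with Acadl at 306 ± 8.15, Ehhadh at 266 ± 47.1, Acadm at 204 ± 13.8, Hadha at 151 ± 0.509, Cpt2 at 130 ± 36.1 and Cpt1a at 120 ± 17.9. Acadvl thus led in abundance, while Hadha led in footprints. Input levels depend on the length used, since the annotated exons of Hadha (8730 bases), Hadhb (6595) and Cpt1a (7642) add up to far more than the transcript with the longest coding sequence (4017, 2048 and 4317). With that transcript's length, an alternative chosen after the data were seen, Hadha stood at 328 and Hadhb at 86.5 normalized input reads per kilobase. RPF per input, each per kilobase with exon length, was highest for Hadha in WT (9.74 ± 1.26) and lowest for Acadvl (2.38 ± 0.160), beside a median of 3.21 over all genes, and Hadhb was near that median at 3.36 ± 0.461. With the length of 1 transcript Hadhb became the lowest of the 8, at 1.04 ± 0.143 beside a median of 2.07, and Hadha was at 4.48 ± 0.580, with a range that overlapped that of Cpt2 at 3.95 ± 0.348. The plot of levels per length shows the order in both genotypes.

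**Figure D1:**
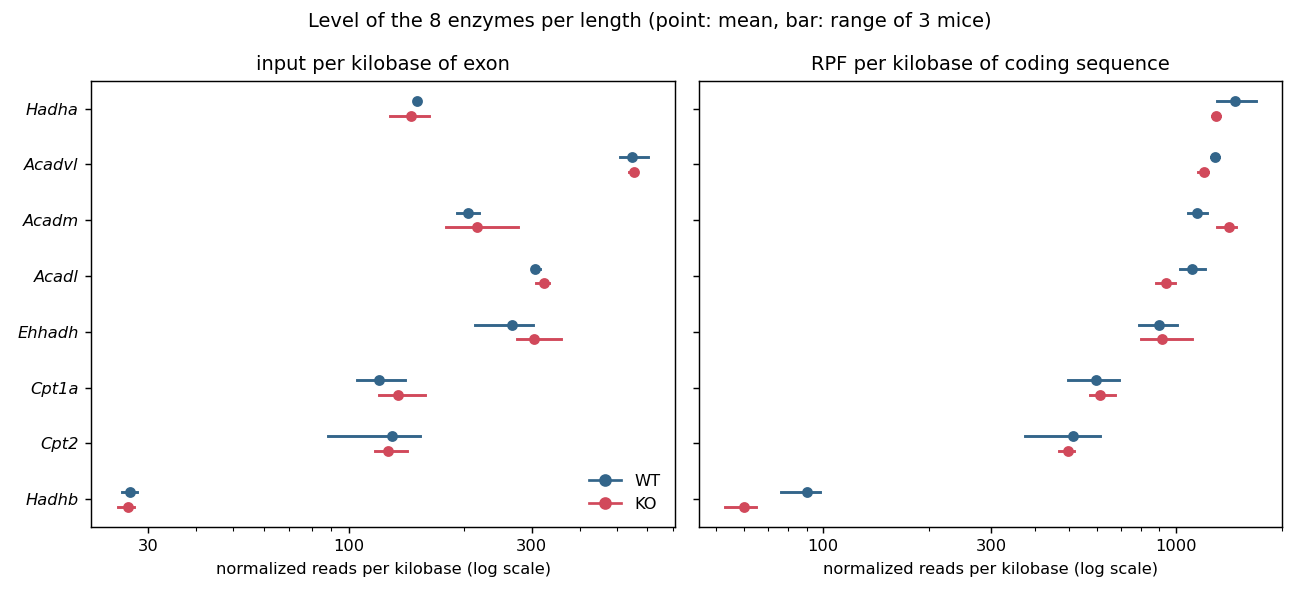
Normalized reads per kilobase on log axes, input (left, per kilobase of exon) and RPF (right, per kilobase of coding sequence), for the 8 enzymes in order of their WT RPF level. Points are means and bars the range of 3 mice, WT in blue and KO in red, and Hadhb lies apart from the other 7 in both panels, at 26.9 in WT input and 90.2 in WT RPF.

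Transcript abundance of the 8 enzymes was tested on the input counts. None passed: 0 of 8 had an adjusted p under 0.05 in edgeR's quasi-likelihood test, beside 0.0% of all genes (0 of 10057), with 0 of 8 at an unadjusted p under 0.05 beside 3.46% of all genes (1.97% higher and 1.49% lower in KO). DESeq2 called 0 of 8 and 1 gene in all. Changes of the 8 ran from -0.03 for Hadha to 0.22 for Ehhadh on the log2 scale (KO minus WT), with a median of 0.07 beside a median of -0.00037 over all genes tested. Their 95% intervals lay between -0.43 and 0.56. No enzyme had groups without overlap in input, beside 9.25% of 8994 genes (3.65% higher and 5.6% lower in KO). Of the 8 changes 2 were below 0, beside 50.0% of all genes.

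Ribosome occupancy was measured by RPF. In limma, 0 of 8 enzymes passed an adjusted p of 0.05, beside 0.489% of all genes tested (44 of 8994, of which 15 were higher and 29 lower in KO). The number over all genes varied with single mice, at 0 without KO mouse 2 and 226 without KO mouse 1, and edgeR on whole reads called 33 genes higher and 33 lower. Among the 8 enzymes an unadjusted p under 0.05 was found for 1, Hadhb, beside 13.4% of all genes. The change was below 0 for 5 enzymes and above 0 for 3, and it was below 0 for 54.0% of all genes. The median log2 change of the 8 was -0.06, and that of all genes -0.03. RPF values of WT and KO mice did not overlap for 4 of 8 enzymes, Acadm being higher in KO and Acadl, Acadvl and Hadhb lower, beside 19.8% of all genes (6.97% higher and 12.9% lower in KO). When litter was added as a term (the replicate block), 236 genes passed in RPF, 2.62% of those tested, and Hadhb was the 1 enzyme of 8 among them.

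**Figure D2:**
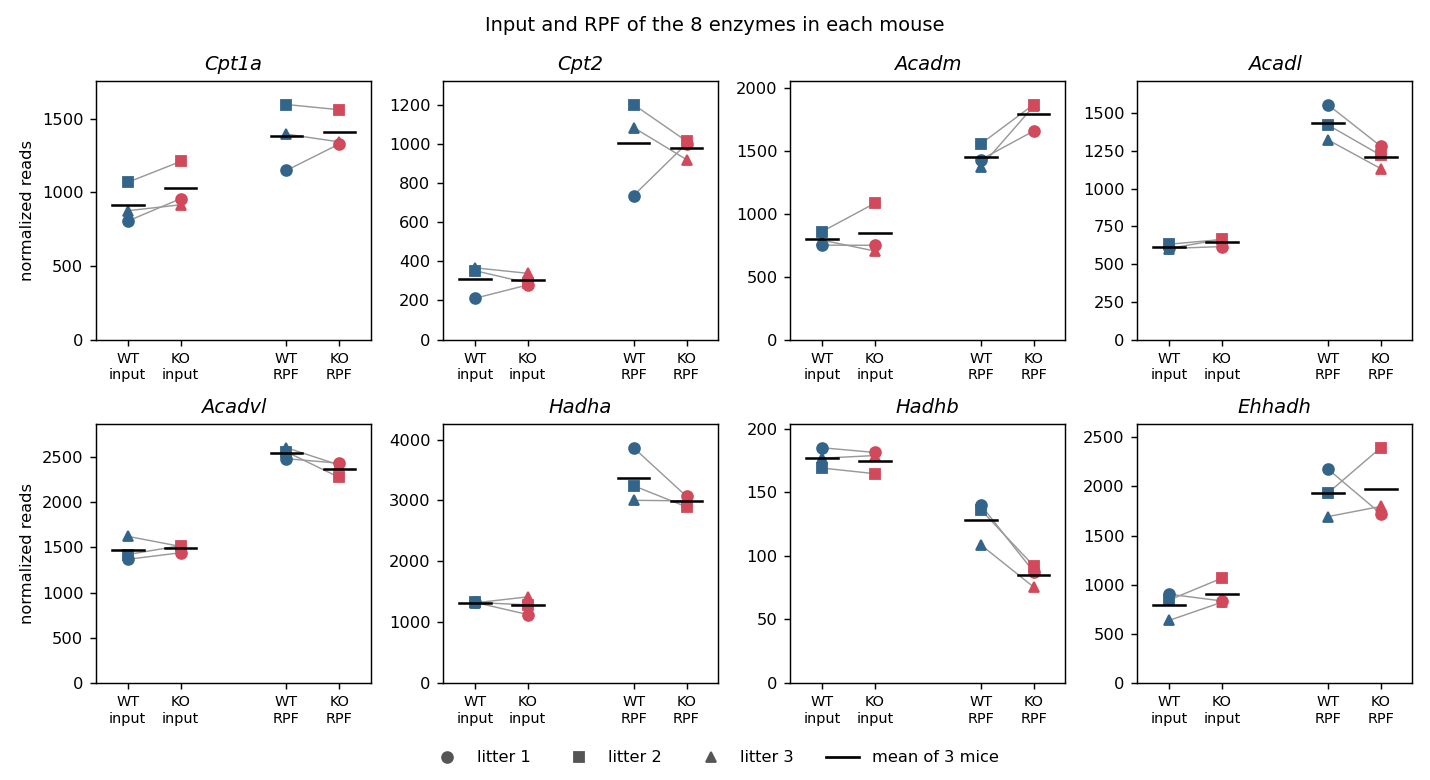
Normalized reads of the 8 enzymes in input and RPF (vertical axes from 0, a panel per gene), with WT in blue, KO in red, a symbol per litter, grey lines joining littermates and black bars at the mean of 3 mice. RPF groups lie apart for Acadm (KO above WT) and for Acadl, Acadvl and Hadhb (KO below WT), while input groups overlap in all 8 panels.

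The carnitine step came first. Cpt1a (chr19:3322334-3385733, plus strand, mm10) had 805, 1069 and 876 normalized input reads in WT mice 1, 2 and 3 and 958, 1211 and 916 in KO mice. Each KO mouse was above its WT littermate in input, but the groups overlapped, and the change was 0.19 (SE 0.16). In RPF it had 1150, 1598 and 1397 in WT and 1330, 1563 and 1344 in KO, with mouse 2 of each genotype the highest of its group. The RPF log2 change of Cpt1a was 0.04 (95% interval -0.29 to 0.37). Cpt2 (chr4:107903981-107923610, minus strand) had 737, 1203 and 1085 RPF reads in WT and 1002, 1016 and 921 in KO, so that WT mouse 1 lay far below every other mouse. The same mouse was lowest in Cpt2 input, at 211 against 353 and 367 in the other WT mice and 280, 290 and 339 in KO. Neither enzyme's change exceeded this spread, and the interval for Cpt2 in RPF reached from -0.44 to 0.41 around a change of -0.01. Slc25a20, the carrier that exchanges acylcarnitine for carnitine between these 2 enzymes, had 711, 674 and 697 RPF reads in WT and 585, 575 and 457 in KO. These groups did not overlap, and its log2 change of -0.37 (SE 0.15) did not pass (limma adjusted p 0.282).

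The acyl-CoA dehydrogenases differed among themselves in direction. Acadm (chr3:153922357-153944632, minus strand) had 1430, 1554 and 1373 RPF reads in WT and 1657, 1868 and 1855 in KO. Every KO mouse lay above every WT mouse, by a log2 change of 0.30 (SE 0.15), or 1.23-fold, which did not pass (limma adjusted p 0.392). Its input did not separate the groups, at 750, 857 and 791 in WT and 749, 1083 and 704 in KO, where KO mouse 2 stood highest. Acadl (chr1:66830839-66863277, minus strand) went the other way, with 1558, 1423 and 1324 RPF reads in WT and 1282, 1222 and 1133 in KO. Its change of -0.24 (SE 0.12) did not pass (limma adjusted p 0.402), although each KO mouse was lower than its littermate. With the trend on coding GC content removed from each library, it was -0.16. Acadl input stayed within a narrow span, 603, 632 and 603 in WT and 616, 663 and 665 in KO. Acadvl (chr11:70010183-70015411, minus strand) had 2484, 2560 and 2606 RPF reads in WT and 2434, 2276 and 2413 in KO. The gap between the groups was small, with a log2 change of -0.10 (SE 0.12, limma adjusted p 0.753). Its input was 1368, 1422 and 1623 in WT and 1441, 1519 and 1511 in KO.

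Hadha (chr5:30118304-30155162, minus strand), the alpha subunit of the trifunctional protein, had 3865, 3240 and 3000 RPF reads in WT and 3065, 2893 and 2991 in KO. Each KO mouse was below its littermate, but WT mouse 3 fell within the KO range, and the change was -0.17 (SE 0.13, limma adjusted p 0.614). It was -0.06 without WT mouse 1 and -0.10 with the GC trend removed. Its input was 1323, 1320 and 1314 in WT and 1121, 1281 and 1412 in KO. Ehhadh (chr16:21761287-21787807, minus strand), the peroxisomal enzyme, had 2179, 1932 and 1693 RPF reads in WT and 1724, 2395 and 1797 in KO, with groups that overlapped widely. Its RPF change was 0.02 (95% interval -0.33 to 0.37). Ehhadh input was 902, 842 and 635 in WT and 833, 1066 and 820 in KO, so the mouse highest in RPF, KO mouse 2, was also highest in input.

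Hadhb (chr5:30155248-30184593, plus strand) had the RPF change farthest from 0 of the 8. Its RPF values were 140, 137 and 109 in WT and 87.6, 92.2 and 75.5 in KO, so every KO mouse lay below every WT mouse. They rested on 161, 160 and 211 reads in WT and 126, 150 and 79 in KO, the fewest of the 8 enzymes. The RPF log2 change was -0.59 (SE 0.16, 95% interval -0.92 to -0.25), a 1.5-fold lower value in KO. It did not pass in limma over all genes (adjusted p 0.0973) and did pass once litter was added as a term (limma adjusted p 0.0461). With the trend on coding GC content removed from each library, the change was -0.43 (limma adjusted p 0.360, or 0.239 with litter as a term). RPF libraries differed in that trend: the log2 slope per 10 percentage points of coding GC was -0.17 to -0.08 in WT and -0.01 to 0.28 in KO. Hadhb has the lowest coding GC content of the 8 enzymes, 46.5% beside a median of 52.6% over genes tested and 49.6% to 54.1% in the other 7. Beyond the corrected fit, the part of GC content in the Hadhb value was not tested. No difference was detected in its input, with 185, 169 and 177 in WT and 182, 165 and 179 in KO and a change of 0.01 (95% interval -0.31 to 0.34).

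Most of the Hadhb coding sequence is also present elsewhere in the genome. Of its 1398 stretches of 28 bases, the length of a typical footprint, 1332 (95.3%) occur at another place in the mm10 genome, and the study kept fragments that mapped to a single location. Among 10597 genes with a coding sequence, 83 (0.783%) had at least 90% of stretches in another place, and 67.6% had none. Some of these stretches occur at places that were not identified here. A full-length copy is Gm13910, a processed pseudogene on chromosome 2 (chr2:108948806-108950233, plus strand), which matches Hadhb over all 1425 coding bases at 99.8% identity. Only 3 substitutions separate Hadhb and Gm13910, with the base of Hadhb first and positions counted from the first base of its coding sequence: G201A, A393G and G743A. A coding fragment that covers none of these positions reads the same in gene and pseudogene. Mapping allowed up to 2 mismatches, and how fragments that cover 1 of these positions were placed was not tested. Whether the single location was required in the genome or among transcripts was not given in the sources used here. The stretches of 41 bases around each substitution show how little sets them apart, with the differing base in capitals:
Hadhb at G201A: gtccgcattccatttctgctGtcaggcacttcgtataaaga
Gm13910 at G201A (chr2:108948986-108949026): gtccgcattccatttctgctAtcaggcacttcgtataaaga
Hadhb at A393G: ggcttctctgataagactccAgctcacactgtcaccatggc
Gm13910 at A393G (chr2:108949178-108949218): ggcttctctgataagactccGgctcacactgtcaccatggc
Hadhb at G743A: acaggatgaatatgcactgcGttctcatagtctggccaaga
Gm13910 at G743A (chr2:108949528-108949568): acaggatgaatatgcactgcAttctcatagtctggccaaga
Between these positions the pair was identical over runs of 200, 191, 349 and 682 bases. Gm13910 itself had 3, 3 and 6 counts in WT input and 5, 3 and 3 in KO. Over genes tested, the 54 with at least 90% of stretches elsewhere had a median WT RPF per input (each per kilobase, exon length) of 1.5 (quartiles 0.502 and 3.33), and the 6106 with none had 3.27 (quartiles 1.92 and 5.57). Hadhb itself was at 3.36 on that measure, just above the upper quartile of the first set (3.33) and near the median of the second. This place depends on the length used: with the length of 1 transcript, Hadhb was below the median over all genes (2.07). The 2 sets were not compared with that length. Hadhb shares its coding sequence with a near-identical copy, so its level is uncertain, and the part of placement in its level or in the difference between genotypes was not tested. Acadm has a less similar processed pseudogene, Gm5131 on chromosome 8 (chr8:97163793-97165030, plus strand), at 94.9% identity, and 24.2% of its stretches occur elsewhere. The other 6 enzymes had none.

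**Figure D3:**
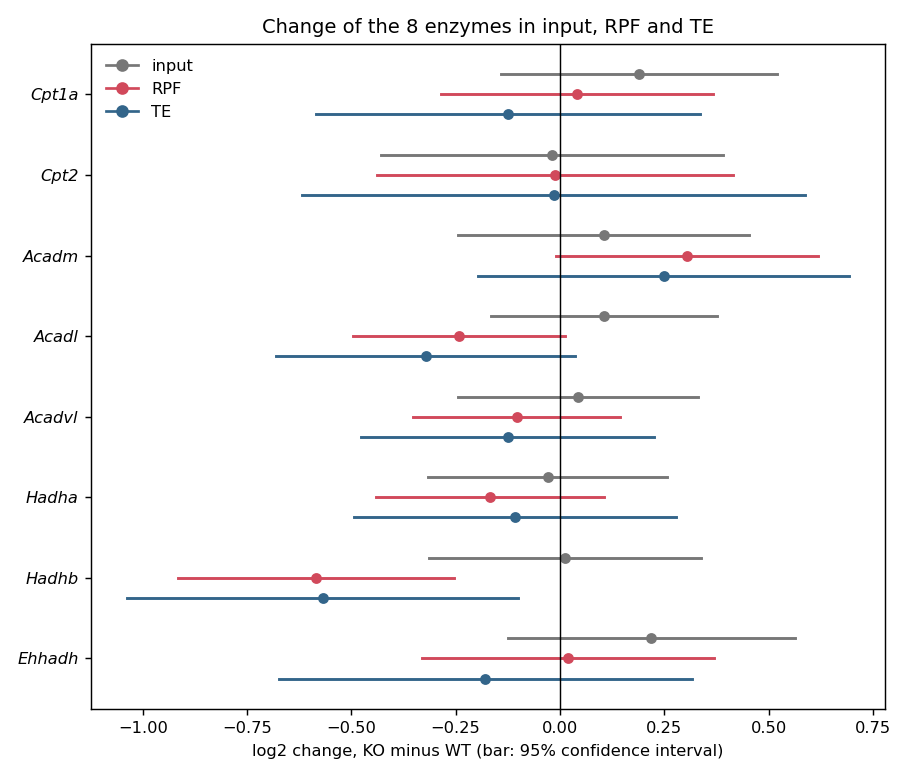
Log2 change (KO minus WT) of the 8 enzymes in input (grey, edgeR), RPF (red, limma) and TE (blue, limma), with bars for the 95% interval and a vertical line at 0. Intervals cross 0 for every enzyme and measure except Hadhb in RPF (-0.59) and in TE (-0.57).

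Translation efficiency (TE), the ratio of RPF to input in a mouse, was tested as the difference between the RPF and input changes, without a term for mouse. In limma, 0 of 8 enzymes passed, beside 0.0% of all genes (0 of 8994), with 1 of 8 at an unadjusted p under 0.05 beside 4.7% of all genes (2.09% higher and 2.61% lower in KO). On whole reads, edgeR called 0 of 8 as well. With mouse as a term in limma, 0 of 8994 genes passed, and 774 had an unadjusted p under 0.05 beside 423 without that term. For 7 enzymes the change was below 0 and for Acadm above, where 51.3% of all genes were below 0, and the median of the 8 was -0.12 beside -0.01 for all genes. TE of Hadhb was 0.757, 0.806 and 0.615 in WT mice and 0.482, 0.559 and 0.422 in KO mice. These values did not overlap, and the change was -0.57 (SE 0.22), which did not pass (limma adjusted p 0.998). Acadl had a TE of 2.58, 2.25 and 2.20 in WT and 2.08, 1.84 and 1.70 in KO, a change of -0.32 (SE 0.17). Ehhadh was the third enzyme without overlap, at 2.41, 2.29 and 2.67 in WT and 2.07, 2.25 and 2.19 in KO, with a change of -0.18 (SE 0.24). Without overlap were thus 3 of 8, all lower in KO, beside 13.4% of all genes (6.09% higher and 7.34% lower in KO). TE of Acadm was 1.91, 1.81 and 1.74 in WT and 2.21, 1.72 and 2.64 in KO, which spread more among KO mice than between the groups. The 95% interval of the TE change was widest for Cpt2, from -0.62 to 0.59.

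Hadha and Hadhb encode the subunits of 1 complex and sit head to head, with 85 bases between their annotated starts in GENCODE M21. The stretch between them (chr5:30155163-30155247, plus strand, GRCm38) is shown because both genes start from it, with matches to the GC box GGGCGG in capitals:
Hadha to Hadhb: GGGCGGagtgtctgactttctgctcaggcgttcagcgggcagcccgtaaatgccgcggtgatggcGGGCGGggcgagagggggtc
In the RefSeq promoter windows of GRCm38 (250 bases before to 50 after the start), all 8 enzymes matched, and GGGCGG on either strand was in 6 of 8, beside 35.7% of 32851 promoters. Hadha had its only match at -188 from its RefSeq start, which is not the start used for the stretch above. The DR1 element, AGGTCA repeated directly with any base between and the textbook form of a PPARA site, was in 0 of 8 and in 0.0396% of all, and AGGTCA alone in 3 of 8 and 16.3% of all. These are descriptions of letters in a window and not of binding. In input, the ratio of Hadha to Hadhb was 7.14, 7.80 and 7.42 in WT mice and 6.18, 7.77 and 7.88 in KO mice, which overlapped (log2 difference -0.04, exact two-sided permutation p 0.9). In RPF it was 27.6, 23.7 and 27.6 in WT and 35.0, 31.4 and 39.6 in KO. Each KO mouse had the higher ratio, by 0.42 on the log2 scale or 1.34-fold (exact two-sided permutation p 0.1, the smallest that 3 against 3 mice allow). The ratio of TE also kept the groups apart, at 3.86, 3.04 and 3.71 in WT and 5.67, 4.04 and 5.03 in KO, a difference of 0.47 (exact two-sided permutation p 0.1). The unequal footprints of the subunits carry the same limit on placing Hadhb fragments as above. Input was also limited to uniquely mapped reads, so the input and TE ratios carry this limit too.

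**Figure D4:**
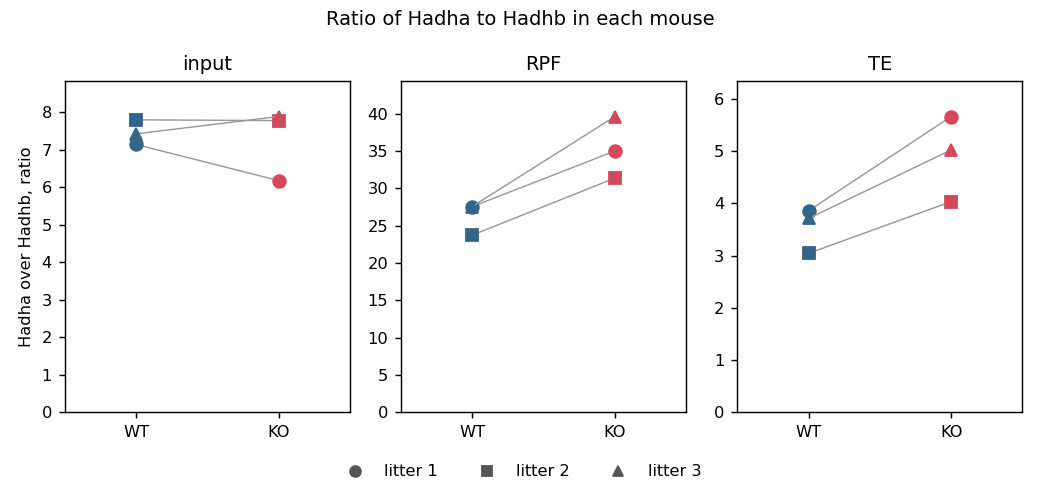
Ratio of Hadha to Hadhb in each mouse (vertical axes from 0) in input, RPF and TE, with WT in blue, KO in red, a symbol per litter and lines joining littermates. In RPF the KO mice sit between 31.4 and 39.6, above the WT mice at 23.7 to 27.6, while in input the groups overlap.

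The pathway around the 8 enzymes was read from 6 lists of 67 genes in all, of which 65 were tested. In edgeR on input, and in limma on RPF and TE, 0 of 65 passed an adjusted p of 0.05. In RPF, 3 were higher and 8 lower at an unadjusted p under 0.05, beside 5.4% and 7.99% of all genes. Among the 13 genes of uptake, activation and the carnitine shuttle the median RPF change was -0.04. Among the 18 of mitochondrial beta-oxidation it was -0.13, where 14 were below 0, beside 54.0% of all genes. Of those 18, 4 (Hadhb among them) had an unadjusted p under 0.05, all lower in KO, beside 7.99% of all genes. None of the 18 passed, and the part of the GC trend in these counts was not tested. Acaa2, the thiolase of shorter chains, had 10423, 9933 and 9696 RPF reads in WT and 9018, 8266 and 7129 in KO, without overlap. Its change of -0.31 (SE 0.13) did not pass (limma adjusted p 0.320). Acads, the short-chain dehydrogenase, was at 0.12 (SE 0.12), and Hadh, the short-chain 3-hydroxyacyl-CoA dehydrogenase, at 0.09 (SE 0.16). With the GC trend removed Acads was at -0.07, so its sign depended on that step.

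Peroxisomal genes, 13 with Ehhadh, had a median RPF change of 0.00016. Hsd17b4, the other peroxisomal bifunctional enzyme, had a change of -0.05 (SE 0.12), and Acaa1b, a peroxisomal thiolase, 0.18 (SE 0.19). Both changed sign with the GC trend removed, to 0.03 and -0.03. With litter as a term, 4 of the 65 genes passed in RPF, beside 2.62% of all genes, namely Hadhb and 3 peroxisomal genes that are named because they were seen to pass. Scp2, the sterol carrier and thiolase, had 35452, 35208 and 38859 RPF reads in WT and 21999, 24158 and 25770 in KO, a change of -0.61 with a limma adjusted p of 0.0151 with litter and 0.0691 without. Abcd3, a peroxisomal fatty acid transporter, had 3392, 3549 and 2760 in WT and 2583, 2329 and 2058 in KO, a change of -0.47 (limma adjusted p 0.0330 with litter and 0.115 without). Scp2 and Abcd3 also passed without KO mouse 1 (limma adjusted p 0.0360 and 0.0446). Abcd2, a related transporter, had 96.7, 43.5 and 32.0 in WT and 132, 83.0 and 84.1 in KO, with each KO mouse above its littermate by a mean log2 change of 0.91 (limma adjusted p 0.0421 with litter and 0.589 without). The groups overlapped, and the change ran from 0.58 without WT mouse 3 to 1.36 without WT mouse 1. With the GC trend removed as well, the adjusted p with litter was 0.0789 for Scp2, 0.286 for Abcd3, whose change was then -0.29, and 0.0643 for Abcd2.

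Ketone body genes gave no call. The median RPF change of the 5 genes was 0.20, and 0 of 5 passed in limma or had an unadjusted p under 0.05. Bdh1, which reduces acetoacetate to 3-hydroxybutyrate, had 1541, 1374 and 1483 RPF reads in WT and 1788, 1657 and 1644 in KO. These groups did not overlap, and the change of 0.21 (SE 0.12) did not pass (limma adjusted p 0.478). Acat1, the thiolase that supplies acetoacetyl-CoA, was at -0.03 (SE 0.12). Oxct1, which uses ketone bodies in other organs, was at the low end, with 10.2 to 16.0 normalized RPF reads in WT and 11.1 to 18.8 in KO. In input, changes of the 5 genes lay between -0.10 and 0.19. Of 7 regulators, 4 were above 0 in RPF. Ppara had 572, 627 and 690 RPF reads in WT and 667, 832 and 780 in KO, a change of 0.27 (SE 0.14, limma adjusted p 0.425), while its input change was 0.02 (SE 0.14). The 9 tested genes of the fasting and PPARA response had a median RPF change of 0.47 (7 above 0 and 2 below), beside -0.03 for all genes. They ranged from -0.28 to 0.92, where the highest had an SE of 1.53. In limma none passed, and 0 of 9 had an unadjusted p under 0.05, beside 13.4% of all genes. Of the 11 genes of this list, 0 were higher and 2 lower in KO without overlap, beside 6.97% and 12.9% of all genes.

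**Figure D5:**
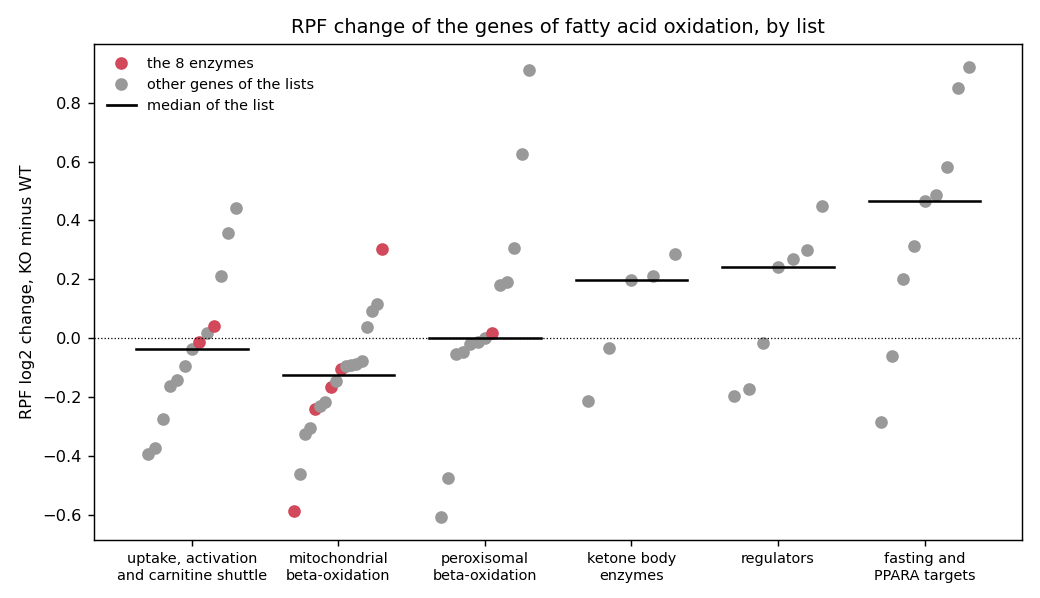
RPF log2 change (KO minus WT, vertical axis) of 65 genes in 6 lists of the pathway, with a point per gene, red for the 8 enzymes, and a black bar at the median of a list. The medians are -0.04, -0.13, 0.00016, 0.20, 0.24 and 0.47 from left to right, and Hadhb is the lowest gene of the mitochondrial list at -0.59.

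Outside the lists, 3 genes had the profile most like the mean of the 8 enzymes over the 12 libraries, each gene centred within input and within RPF. Hspa9, a mitochondrial chaperone, differed from it by a root mean square of 0.0624 on the log2 scale, Suclg1, a subunit of succinyl-CoA ligase, by 0.0631, and Nit2, an omega-amidase, by 0.0644. The median of all tested genes was 0.273. The enzymes themselves were at 0.0860 for Acadl to 0.227 for Cpt2 from their own mean, with Hadhb at 0.211. The 3 genes were picked for the smallest differences, so their lying closer than the enzymes is no result about the enzymes. Hspa9 had an RPF change of -0.21 (SE 0.12), which did not pass (limma adjusted p 0.462) and was -0.06 with the GC trend removed.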

How the data were processed

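Input and RPF libraries of 6 livers were measured, 12 in all. Per the labels and methods, the authors trimmed reads with BBDuk and aligned input to mm10 with STAR 2.7.3a. They kept uniquely mapped input reads and deposited whole-number counts per gene from featureCounts. RPF fragments of 25 to 34 bases were mapped with RiboToolkit, up to 2 mismatches and a single location, without removing duplicates. The authors' deposited table of normalized signal holds reads divided by 1 factor per library; whole reads were recovered for 100% of values, within 0.02 reads. The authors' fold change and p-value columns were not used. Input held 8326325 to 11825643 read pairs, of which an 18S rRNA gene took 45.8% to 63.8%.

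Input counts were tested with edgeR 4.0.16 in R 4.3.3 (TMM, filterByExpr, robust quasi-likelihood), and RPF and TE with limma 3.58.1 (trend, robust) after adding 1 and taking log2, which understates changes of low genes. Genes averaging under 10 in either assay were left out. P-values are two-sided and Benjamini-Hochberg adjusted over all genes. The fits were tested on simulated reads, where most small changes were missed. A 1.5-fold change was called for 4.48% of changed genes in input and in RPF and for 0% in TE. For a 2-fold change it was 52.2%, 53.7% and 10.4%, and for a 4-fold change 98.5%, 100% and 89.4%. A gene that did not pass may thus still have changed by 1.5-fold, unless its 95% interval excluded such a change. Input intervals of the enzymes lay between -0.43 and 0.56 on the log2 scale and excluded it. In RPF only the intervals of Acadm (up to 0.62) and Hadhb (down to -0.92) reached it. TE intervals were wider, between -1.04 and 0.69. Per-length levels and stretches of 28 bases used the longest coding sequence in GENCODE M21.

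Shared numbers mark littermates in the labels; their deviations from group means correlated across genes at 0.082 to 0.127 in input and 0.144 to 0.242 in RPF. Members and lists were chosen with earlier results of these data known. Named genes were the 8 enzymes, list genes that passed, 12 fixed pathway genes (3 of which are not reported here), the 3 most alike and Mettl5. Oxct1, Scp2, Abcd2 and Abcd3 were named after their values were seen. Alternatives included DESeq2 1.42.0, other filters, pseudocounts of 0.1 and 5, centring, litter or mouse terms, GC correction and leaving out each mouse.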

Additional observations from a re-analysis of the deposited data

How the results depend on the processing

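Over all genes, the number that passed in input was 0 and became 1 with DESeq2, 30 without the filter on low counts and 2 with litter as a term (the replicate block). In RPF the number was 44 and became 10 with the GC trend removed, 236 with the replicate block and 23 from RPF libraries alone. In TE it was 0 and became 1 with the replicate block, with and without the GC correction. Leaving out 1 mouse gave 0 to 21 in input and 0 to 226 in RPF, and TE stayed at 0. The causes were not tested. Of the 8 enzymes, the replicate block called 1 in RPF, Hadhb, and changed no other call of theirs, and no other alternative called any enzyme. Hadhb in RPF ran from -0.70 to -0.43 over its alternatives (limma or edgeR adjusted p 0.0461 to 0.422). The median WT input per kilobase over the 8 enzymes became 293 with the length of 1 transcript, an alternative chosen after seeing the data.

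Changes near 0 turned. For Cpt2 these were input with the replicate block (0.023), RPF with columns centred on their median (0.00040) and TE with the GC trend removed, with and without the block (0.013). With the GC trend removed, again with and without the block, RPF of Acat1 became 0.065, Acads -0.070, Hsd17b4 0.035, Acaa1b -0.028 and Nit2 0.024. Leaving out 1 mouse turned further values. In input, Cpt2 then ran from -0.23 to 0.12, Acadm from -0.10 to 0.22, Acadvl from -0.0057 to 0.12, Hadha from -0.10 to 0.050, Hadhb from -0.024 to 0.060 and the log2 difference of the Hadha to Hadhb ratio from -0.10 to 0.072. In RPF, Cpt1a ran from -0.085 to 0.15, Cpt2 from -0.22 to 0.13 and Ehhadh from -0.13 to 0.11, and in TE Cpt2 from -0.089 to 0.11. Without a sign change, leaving out 1 mouse also moved RPF of Hadh (0.010 to 0.15) and Acaa1b (0.056 to 0.31) and TE of Acadm (0.10 to 0.41) and Hadha (-0.22 to -0.0074). With 2 mice left in a group, its spread was pooled with the other groups.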
